A study of Mus musculus with 16 samples.

Results

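Saa3, Hp, Lrg1, Lcn2, Slpi, S100a8, S100a9 and Serpina3g encode acute-phase, granule and protease-inhibitor proteins. Their transcripts were followed in cells that had entered the mouse brain from a bone marrow graft and in the microglia of the same brains. These 8 genes, of 24411 in the count table, were chosen by their read counts in these libraries, as high in engrafted cells or after LPS, so their own levels and fold changes are a description and no p-value of them is given. Where one is said to be called, it passed the thresholds applied to all genes, and that is no evidence, since the same libraries chose it. RNA came from 8 chimeras and 16 libraries, in 4 groups of 4. All animals were C57BL/6J and WT by their labels, and all recipients had been irradiated with 950 cGy and given WT donor bone marrow, so the control groups carry irradiation and graft too. Engrafted cells (CD45.1) and host microglia (CD45.2) were sorted from each brain as CD11b-positive, Ly6C/G-negative cells with low CD45. Mice 1 to 4 had received 2.5 mg/kg LPS, the endotoxin of Gram-negative bacteria, 12 h earlier, and mice 5 to 8 were unchallenged controls. The labels allow 3.5 or 9 months between transfer and challenge, and the study's text gives 9 months for the LPS experiment. The study's text describes no vehicle injection of the controls, and without one LPS and the injection itself cannot be told apart. No sham-transplanted brain is among these libraries, and CD45.1 cells are a mixture of all graft-derived cells that passed the gate.

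Acute-phase proteins are plasma and tissue proteins whose synthesis rises within hours of infection or injury. Most are made by the liver when interleukin-1 and interleukin-6 act through NF-kappaB, C/EBP and STAT3, but macrophages and epithelia make some of them locally. Serum amyloid A3 and haptoglobin bind lipid and free haemoglobin, lipocalin 2 withholds bacterial siderophores, and Slpi and the serpins hold proteases in check, while S100a8 and S100a9 form calprotectin, a metal-binding complex that fills much of the neutrophil cytosol.

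The 5 promoters below are shown because 4 of them hold the same C/EBP letters, although their genes behaved differently after LPS, and the fifth, of Hp, holds no match although its levels followed those of Slpi most closely among the 8 genes. Each is the 250 bases before the gene's deposited start, 5′ to 3′ on the gene's strand, read from the mm9 genome (NCBIM37), and capitals mark a match to TTNNGCAA on either strand.
Saa3 (chr7:53971047-53971296, minus strand): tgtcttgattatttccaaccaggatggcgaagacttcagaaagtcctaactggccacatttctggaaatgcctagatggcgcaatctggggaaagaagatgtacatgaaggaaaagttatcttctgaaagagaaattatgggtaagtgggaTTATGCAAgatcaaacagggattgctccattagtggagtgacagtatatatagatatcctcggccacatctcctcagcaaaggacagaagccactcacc
Lcn2 (chr2:32243260-32243509, minus strand): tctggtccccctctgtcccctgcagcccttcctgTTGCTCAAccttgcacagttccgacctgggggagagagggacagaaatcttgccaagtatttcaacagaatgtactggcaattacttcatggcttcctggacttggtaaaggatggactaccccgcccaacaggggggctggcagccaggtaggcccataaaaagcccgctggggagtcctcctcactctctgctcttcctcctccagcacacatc
Slpi (chr2:164182244-164182493, minus strand): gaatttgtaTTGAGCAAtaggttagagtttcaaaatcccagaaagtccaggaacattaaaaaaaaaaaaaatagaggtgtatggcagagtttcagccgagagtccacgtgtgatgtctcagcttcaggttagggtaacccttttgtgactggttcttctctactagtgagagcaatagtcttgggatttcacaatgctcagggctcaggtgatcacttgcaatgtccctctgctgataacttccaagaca
S100a9 (chr3:90499644-90499893, minus strand): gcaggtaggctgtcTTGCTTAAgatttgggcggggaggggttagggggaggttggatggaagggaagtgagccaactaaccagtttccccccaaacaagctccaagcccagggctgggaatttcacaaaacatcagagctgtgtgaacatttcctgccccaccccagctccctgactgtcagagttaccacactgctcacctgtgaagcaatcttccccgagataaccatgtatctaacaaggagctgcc
Hp (chr8:112103073-112103322, minus strand): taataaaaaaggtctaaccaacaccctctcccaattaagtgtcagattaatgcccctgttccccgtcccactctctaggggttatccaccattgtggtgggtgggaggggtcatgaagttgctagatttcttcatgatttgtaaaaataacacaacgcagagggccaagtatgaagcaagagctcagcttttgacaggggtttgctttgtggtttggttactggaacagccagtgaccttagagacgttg
The C/EBP letters TTNNGCAA stood in 8.8% of the 24341 promoters of this length and in 5 of the 8 described here, the fifth being Serpina3g. They began 99 bases before the start in Saa3 (TTATGCAA), 216 in Lcn2 (TTGCTCAA), 241 in Slpi (TTGAGCAA) and 236 in S100a9 (TTGCTTAA). The STAT letters TTCNNNGAA were in 6.84% of all promoters and 1 of these 8, Serpina3g, and an NF-kappaB consensus of 10 bases was in 1.4% of all and in 0 of 8. No motif overlapped another in these windows. These are matches of letters, and binding was not measured here.

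Between 395283 and 1203597 reads lay on genes in a library (median 820587.5), so that 3 reads, the most that a count of 0 allows, equal 2.34 to 8.76 CPM (counts scaled to a common library size), the coarsest value being that of engrafted cells of LPS mouse 4. Library sizes were scaled by TMM, and such limits and the intervals below cover counting error only. The graft marker list (Ms4a7, Mrc1, H2-Ab1 and 5 others) summed to 4133 to 17474 CPM in engrafted and 117 to 343 CPM in host libraries. The microglial list (Tmem119, P2ry12 and 7 others) summed to 5580 to 18138 and 11666 to 26070 CPM, ranges that overlapped. A host list (Sall1, Sall3, Upk1b, Klk8 and Slc2a5) summed to 8.76 to 69.9 CPM in engrafted and 412 to 1659 CPM in host libraries. Both populations thus carried the markers their labels name. Red blood cell transcripts stood apart in mice 8 and 4, with 4865 and 6879 CPM in the engrafted libraries.

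Saa3, the serum amyloid A that macrophages make, had the highest values of the set. Its level in unchallenged engrafted cells was 60.8, 104, 117 and 92.7 CPM in mice 5 to 8, and in engrafted cells after LPS it was 29020, 23556, 19348 and 18664 CPM in mice 1 to 4. Those 2 groups lay far apart, and the log2 fold change was 7.92 (SE 0.27, n = 4 and 4). Host microglia held 35.4, 52.9, 52.2 and 138 CPM without LPS and 2324, 2948, 752 and 811 CPM after it, again without overlap, for a log2 fold change of 4.59 (SE 0.42). Without LPS the engrafted and host libraries overlapped, with means of 93.7 ± 24.1 and 69.7 ± 46.4 CPM (SD, n = 4). After LPS every engrafted library lay above every host library, by 3.74 on the log2 scale (SE 0.38). In read terms, Saa3 alone made up 1.62 to 2.75% of the reads on genes in LPS-treated engrafted libraries, and all 8 genes made up 2.00 to 3.62% there, against 0.0302 to 0.106% in unchallenged engrafted cells, 0.00416 to 0.0183% in unchallenged host microglia and 0.105 to 0.331% in host microglia after LPS. The neighbouring paralogs of Saa3 hardly appeared. Saa1 had 23 reads and Saa2 had 12 over the 4 LPS-treated engrafted libraries, and Saa4 had none in any library.

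Haptoglobin (Hp), which captures free haemoglobin, was close to silent outside LPS-treated engrafted cells. There it reached 3925, 2525, 1251 and 1062 CPM in mice 1 to 4, against 10.1, 13.9, 26.8 and 29.7 CPM in the unchallenged engrafted libraries, a log2 fold change of 6.82 (SE 0.44). Host libraries held 4.42, 4.81, 3.12 and 12.1 CPM without LPS and 26.0, 3.91, 17.9 and 22.4 CPM with it. These host groups overlapped, and the fitted log2 fold change of 1.46 (SE 0.49) lost its call when LPS mouse 1, control mouse 6 or control mouse 7 was left out of the host libraries, at 1.19, 1.36 and 1.18. Per mouse, the host level after LPS was 0.155 to 2.11% of the engrafted level.

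Lrg1, a leucine-rich glycoprotein that modifies TGF-beta signalling in vessels, departed from the other acute-phase genes, since its level after LPS was not higher in engrafted cells. Engrafted libraries held 12.2, 6.93, 8.38 and 0 CPM without LPS, the last with no read where up to 3 are allowed, and 60.5, 42.1, 53.7 and 123 CPM with it (log2 fold change 3.06, SE 0.45). Host microglia held 0, 0, 0 and 1.01 CPM without LPS, which is 1 read in 4 libraries, and 72.5, 74.3, 124 and 173 CPM with it. Pooled over the group, the host read rate after LPS was 424 times that without (95% interval 75.7 to 16803, exact binomial, 368 against 1 reads). In every one of the 4 LPS mice the host value was the larger, at 120 to 230% of the engrafted value, although as groups the libraries overlapped (engrafted minus host log2 fold change -0.75, SE 0.32, and -1.04 and called without engrafted mouse 4). Lrg1 was thus higher after LPS in both populations, and a description of this set as induced in the graft leaves out its host levels.

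**Figure D1:**
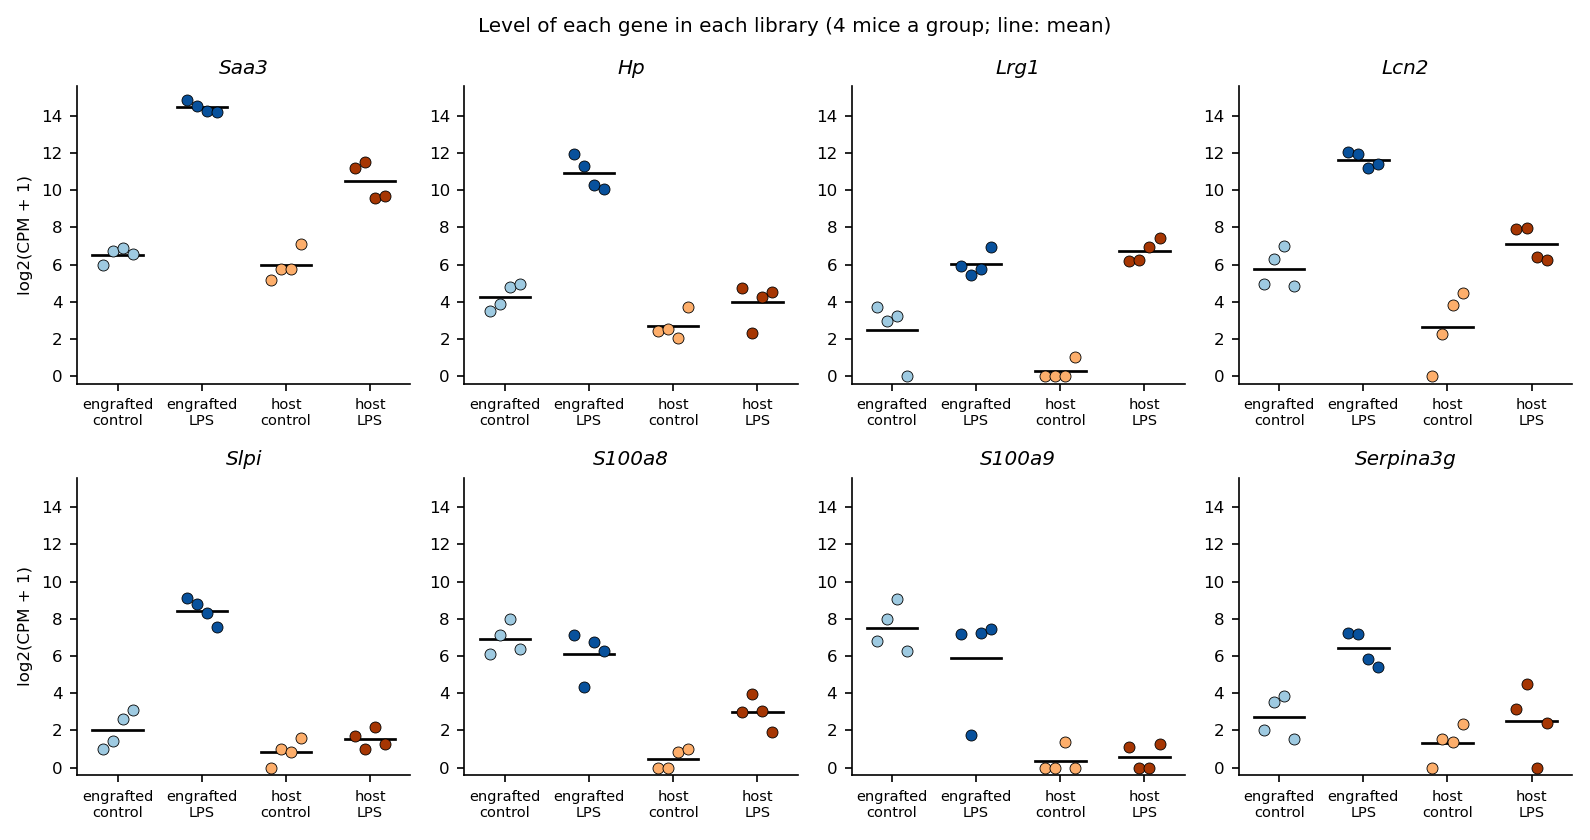
Level of each gene in each of the 16 libraries as log2(CPM + 1), by group, with 1 point a mouse (mice in order from left to right) and a line at the mean of 4. The 4 engrafted LPS libraries stand apart for Saa3, Hp, Lcn2, Slpi and Serpina3g, both LPS groups stand high for Lrg1, and both engrafted groups stand high for S100a8 and S100a9.

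Lcn2, the siderophore-binding lipocalin of neutrophil granules and of inflamed macrophages and epithelia, differed between the populations already without LPS. Engrafted libraries held 29.4, 76.2, 126 and 27.8 CPM and host libraries 0, 3.85, 13.2 and 21.2 CPM in mice 5 to 8 (log2 fold change 2.59, SE 0.48). The groups did not overlap, but in mouse 8 the host value was 76.3% of the engrafted one. After LPS the values were 4302, 3888, 2337 and 2700 CPM in engrafted cells and 237, 248, 83.3 and 75.5 CPM in host microglia. Both populations were thus far above their unchallenged levels, by 5.69 (SE 0.39) and 3.95 (SE 0.46) on the log2 scale. The difference of these changes, 1.73, was not called, and was called at 1.75 when the mouse was fitted as a replicate block.

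Slpi, an inhibitor of neutrophil elastase and cathepsin G, was read mainly in engrafted cells of LPS-treated mice. Values there were 552, 442, 313 and 190 CPM, against 1.01, 1.73, 5.03 and 7.41 CPM in unchallenged engrafted cells (log2 fold change 6.73, SE 0.42). Host microglia had 0 to 2.02 CPM without LPS and 0.977 to 3.57 CPM with it, at most 3 reads in a library, so no fold is given between them. After LPS the pooled rate in engrafted cells was 204 times that in host microglia (95% interval 98.5 to 508, 1179 against 7 reads).

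Serpina3g is a serpin that inhibits lysosomal cathepsins. Engrafted cells held 3.04, 10.4, 13.4 and 1.85 CPM without LPS and 152, 143, 56.3 and 40.9 CPM after it (log2 fold change 3.89, SE 0.48), with no overlap. Host microglia held 0, 1.92, 1.56 and 4.04 CPM without LPS and 7.92, 21.5, 0 and 4.20 CPM with it, and these groups overlapped. The identity of these reads is uncertain, because the deposited model of Serpina3g on the plus strand of chr12:105452754-105480144 spans its paralog Serpina3f on the same strand, which was itself counted at 11.6 ± 3.97 CPM in engrafted LPS libraries and at 12.7 ± 11.8 CPM in host LPS libraries (SD, n = 4).

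The calprotectin pair behaved otherwise. S100a8 was at 66.9, 137, 256 and 81.5 CPM in unchallenged engrafted cells and at 140, 19.3, 106 and 75.9 CPM after LPS, groups that overlapped (log2 fold change -0.63, SE 0.42). S100a9 was at 113, 253, 526 and 76.0 CPM and, after LPS, at 145, 2.41, 147 and 172 CPM (log2 fold change -1.09, SE 0.58). Neither gene was higher after LPS in engrafted cells, so that both go against the description as induced there. Host microglia had at most 2 reads of S100a9 in any library, whether or not LPS was given. For S100a8 they had 2 reads over the 4 unchallenged libraries and 29 over the 4 LPS libraries, where the values were 6.79, 14.7, 7.14 and 2.80 CPM, and the pooled rate was 16.7 times higher (95% interval 4.23 to 145). Between populations without LPS, the pooled rate in engrafted cells was 253 times the host rate for S100a8 (69.4 to 2096) and 452 times for S100a9 (125 to 3744, 612 against 2 reads), and after LPS it was 186 times for S100a9 (51.1 to 1544). For S100a8 after LPS the difference was smaller in value, a fitted 10.4-fold (log2 fold change 3.37, SE 0.51), and in mouse 2 the engrafted level was 1.31 times the host level, from 16 against 15 reads.

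**Figure D2:**
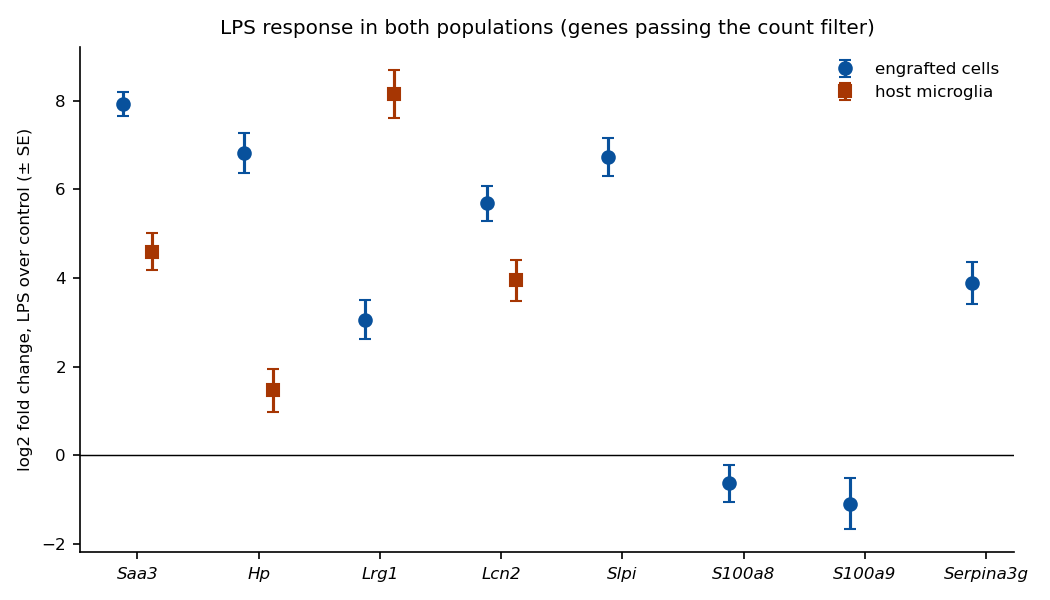
Fitted log2 fold change of LPS over control with its standard error, for genes that passed the count filter in engrafted cells (circles, 8 of 8) and in host microglia (squares, 4 of 8). Saa3, Hp and Lcn2 lie higher in engrafted cells and Lrg1 higher in host microglia, where its value is fitted against 1 read. S100a8 and S100a9 lie below 0 in engrafted cells.

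Counted over the set, 6 of 8 genes were called higher after LPS in engrafted cells, where 10.2% of 7609 genes tested were. Without regard to a test, the libraries of 6 of 8 did not overlap (higher, background 17.6%). Here and below, counts without overlap are over all 8 genes, but their backgrounds are over the genes that passed the count filter. Of host microglia, 4 of the 4 genes that passed the count filter were called higher (background 7.66% of 8238) and 4 of 8 did not overlap (higher, 17.2%). Engrafted against host without LPS, 3 of 4 tested were called higher (6.25% of 8042), and 3 of 8 did not overlap (12.5%). After LPS 6 of 7 were called higher (6.73% of 7843), and 7 of 8 did not overlap (10.4%). The LPS response differed between populations, by the interaction, in 3 genes with the larger response in engrafted cells (Saa3, Hp and Slpi, background 2.45% of 8847) and in 2 with the larger response in host microglia (Lrg1 and S100a8, background 2.5%). The Slpi call was lost without control mouse 6, 7 or 8 of the host libraries, at 5.88, 5.96 and 5.35, and the S100a8 call without host LPS mouse 2 or 3, any of the 4 host control mice, or engrafted control mouse 6 or 7, at -4.74 to -3.78. Median log2 fold changes over the genes tested were 4.79, 4.27, 5.14 and 3.74 in these 4 comparisons of groups, beside medians of -0.01, 0.01, 0.02 and -0.01 over all genes. Because the genes were picked for such differences, and because several passed the filter only through the group where they were high, nothing is read from these counts. The comparisons also share libraries, those of the control and of the LPS groups alike.

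Host values are set here beside those of genes that mark the graft. Such markers were read in unchallenged host libraries too (H2-Ab1 at 209 ± 80.7 CPM). Some also changed with LPS in engrafted cells, Clec12a from 523 to 73.9 CPM and Cd38 from 39.8 to 349 CPM. Host levels as a percentage of engrafted ones are therefore no measure of carry-over of engrafted cells in the host gate. After LPS the host level, as a percentage of the engrafted level in the same mouse, had medians of 3.06% for Mrc1 (range 1.76 to 3.52%), 2.05% for Ms4a7 (0.741 to 3.59%), 1.94% for Cd38 (1.71 to 3.02%) and 4.96% for H2-Ab1 (2.55 to 5.74%). The other markers with LPS values had few host reads and ranged wider, from 0 to 9.58% for Runx3, 0 to 5.32% for Ccr2 and 0 to 3.69% for Clec12a. The same percentage was 3.89 to 12.5% for Saa3, 2.80 to 6.38% for Lcn2, 0.155 to 2.11% for Hp and 0.221 to 1.14% for Slpi. It was 0 to 15.0% for Serpina3g, 0 to 0.812% for S100a9 and 3.69 to 76.1% for S100a8, whose highest value came from LPS mouse 2. Host values of Hp, Slpi, Lcn2 and S100a9, relative to the graft, lay within the range of the 7 markers over all LPS mice (0 to 9.58%). Within the same mouse, those of Saa3 and Lcn2 lay above all 7 in LPS mice 1 and 2. Those of Serpina3g did so in mice 1, 2 and 4, and those of S100a8 in mice 1, 2 and 3. Those of Lrg1 exceeded 100% in each mouse. Whether carry-over contributes to the host levels was not tested.

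**Figure D3:**
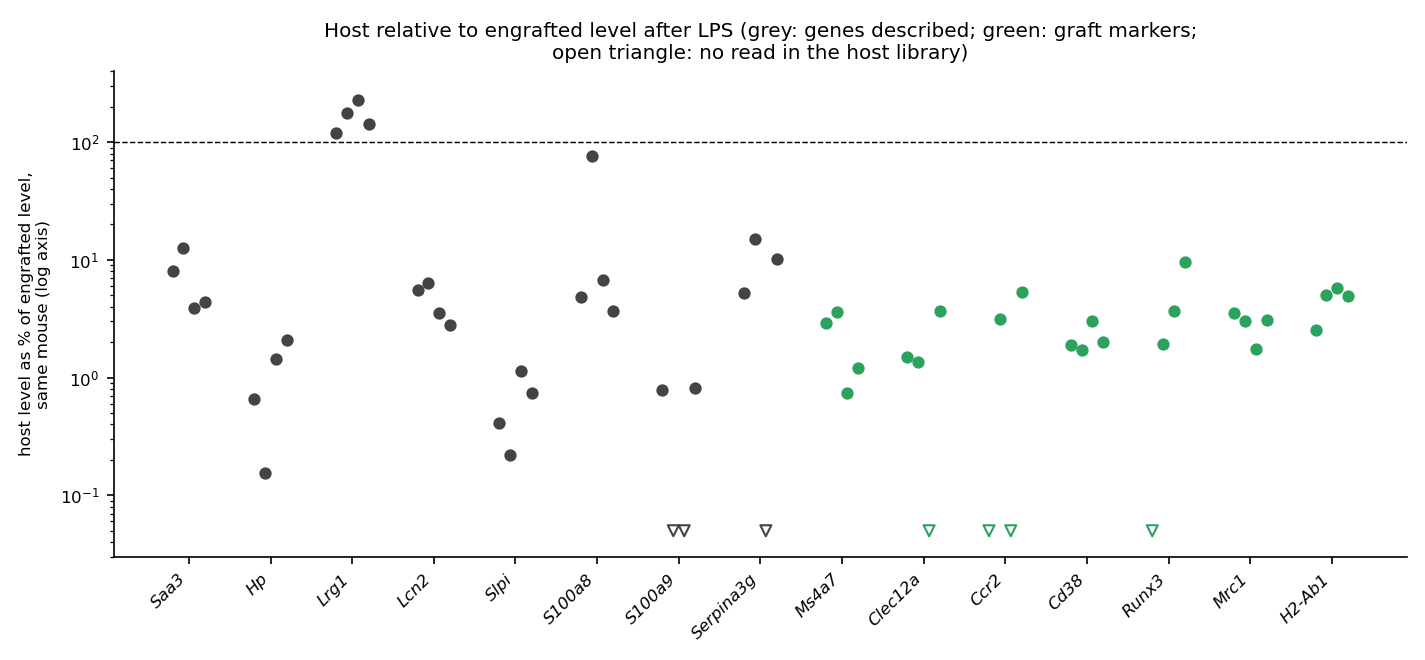
Host level as a percentage of the engrafted level in the same mouse after LPS (log axis, 1 point for each of LPS mice 1 to 4 from left to right), for the 8 genes (grey) and for graft markers (green), with open triangles where the host library had no read and a dashed line at 100%. Lrg1 lies above the line in all 4 mice, from 120 to 230%, and Hp and Slpi lie between 0.155 and 2.11%.

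Markers of other leukocytes moved beside these genes. The 11 monocyte genes of a fixed list were all read in engrafted cells, where their summed level was 240 to 436 CPM without LPS and 1506 to 3010 CPM with it, and it was 21.0 to 71.3 CPM in host libraries. Ly6c2, which encodes the monocyte surface protein Ly6C, was at 24.3, 36.4, 40.2 and 22.2 CPM in mice 5 to 8 and 853, 860, 702 and 429 CPM in mice 1 to 4, a rise of 4.54 on the log2 scale (SE 0.27, edgeR adjusted p = 2.02e-10), although Ly6C-positive cells were gated out. Of the 9 list genes tested, 8 were called higher after LPS, among them Plac8 by 4.19 (adjusted p = 3.91e-09), and 1 was called lower (over all genes 10.2% and 11.3%). That one was Ccr2, the chemokine receptor of classical monocytes, which went from 159 ± 67.0 to 46.2 ± 13.4 CPM and fell by 1.78 (adjusted p = 5.52e-05). Ace, of non-classical monocytes, was too low to be tested, at 9.55 ± 2.97 and 9.17 ± 1.90 CPM. The other list gene too low for a test, Treml4, went from 2.27 ± 3.52 to 18.7 ± 12.9 CPM without overlap (5 and 44 reads). Among the LPS-treated engrafted libraries, Saa3, Hp, Slpi and Serpina3g ran from mouse 1 (highest) through 2 and 3 to mouse 4 (lowest), as did Plac8, while Ly6c2 had the order 2, 1, 3, 4 and Chil3 the order 1, 4, 3, 2. Lcn2 had mice 3 and 4 exchanged and Lrg1 was highest in mouse 4. The part of recently arrived monocytes in these levels was not tested, and in bulk RNA more cells of a type and more RNA per cell cannot be told apart.

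For S100a8 and S100a9 the neutrophil list was the relevant one. Without Csf3r, which microglia also express, its other 15 genes summed to 132 to 510 CPM in unchallenged and 53.0 to 273 CPM in LPS-treated engrafted cells, and to at most 8.39 CPM in any host library. Ngp and Camp, proteins of neutrophil secondary granules, accounted for much of it. In unchallenged engrafted cells Ngp was at 68.9, 104, 211 and 11.1 CPM in mice 5 to 8, and S100a9, Ngp and Ltf (lactoferrin) shared the order of mice 7, 6, 5, 8, as did Lcn2, Serpina3g and the monocyte marker Ly6c2. Camp had the order 7, 5, 6, 8 and S100a8 the order 7, 6, 8, 5. After LPS, mouse 2 had the lowest values of S100a8 (19.3 CPM), S100a9 (2.41 CPM) and Ngp (1.20 CPM) and no read of Camp or Ltf. Other list genes were read in all 4 LPS-treated engrafted libraries, Mmp8 at 17.5 to 40.7, Cd177 at 8.76 to 28.6 and Prtn3 at 7.23 to 49.6 CPM. Unlike S100a8 and S100a9, Mmp8 and Prtn3 had more reads after LPS, 82 against 1 and 46 against 5 over the engrafted libraries. Ly6g, the defining surface gene of neutrophils, was at 0 in 3 of 4 unchallenged and 2 of 4 LPS-treated engrafted libraries and reached 2.92 CPM, the gate having left out Ly6G-positive cells, and Mpo and Cxcr2 had no read in unchallenged engrafted cells. The part of neutrophils, or of their RNA, in the S100a8 and S100a9 levels was not tested. In the hepatocyte list, Alb was at 0 in all LPS-treated libraries of both populations, and its summed level of 414 to 1275 CPM in engrafted and 513 to 3288 CPM in host LPS libraries was almost all Ttr, a gene also of the choroid plexus. Ttr rose with LPS in host microglia, from 399 ± 352 to 1552 ± 1233 CPM (log2 fold change 1.93, edgeR adjusted p = 0.00279) with overlapping libraries, and its log2 fold change in engrafted cells was -0.51, not called. The choroid plexus list holds Ttr too and was almost all Ttr, so its sums are no separate support. They were 91.4 to 924 CPM without and 515 to 3327 CPM with LPS in host microglia. None of its other genes had a mean above 8.72 CPM (Folr1) in a host group. The part of choroid plexus RNA in the host levels of the 8 genes was not tested.

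**Figure D4:**
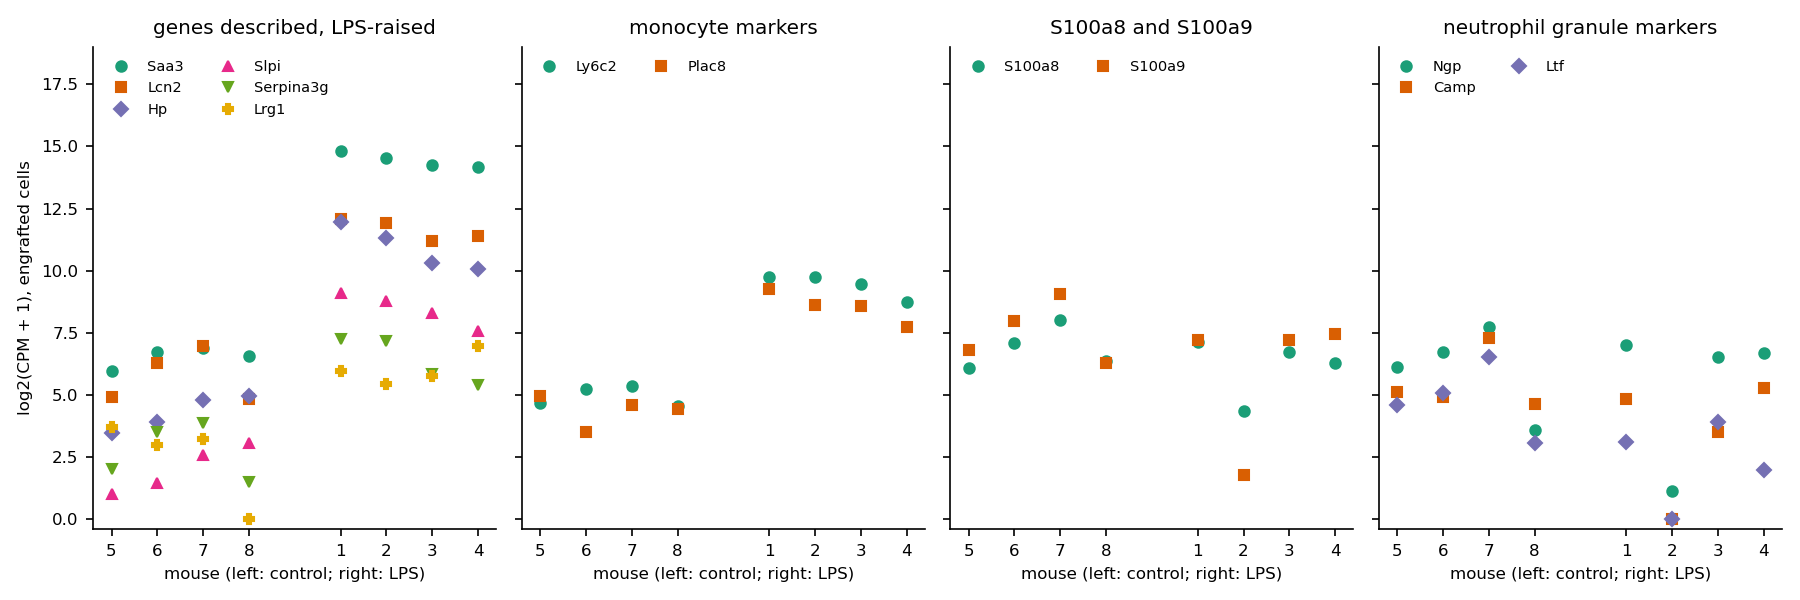
Levels in the 8 engrafted libraries as log2(CPM + 1), by mouse (5 to 8 control, 1 to 4 LPS), with 1 point a library. LPS-raised genes and the monocyte markers Ly6c2 and Plac8 are high in mice 1 to 4. S100a8, S100a9 and, from the neutrophil list, Ngp, Camp and Ltf are low together in LPS mouse 2. The other genes of the neutrophil and monocyte lists are not shown, among them the monocyte gene Ccr2, which was lower after LPS.

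Other genes of the acute phase were taken from a list of 26, of which 5 were tested. In engrafted cells 4 of these 5 rose after LPS and in host microglia also 4 rose (over all genes 10.2% and 7.66%). Their median log2 fold changes were 2.76 and 2.56, beside -0.01 and 0.01 over all genes tested. Mt2, a zinc-binding metallothionein, rose from 31.6 ± 4.48 to 2940 ± 960 CPM in engrafted cells (log2 fold change 6.53, SE 0.28, edgeR adjusted p = 3.17e-12) and by 4.54 in host microglia (adjusted p = 6.73e-11). Il1rn, the interleukin-1 receptor antagonist, rose by 6.13 (adjusted p = 6.35e-09) and 5.08 (adjusted p = 2.02e-07). Ceruloplasmin (Cp), the ferroxidase that carries copper, rose in host microglia, by 2.56 (adjusted p = 1.39e-06), while in engrafted cells it was already at 218 ± 19.9 CPM without LPS and 381 ± 116 CPM after it, a log2 fold change of 0.81 that was not called, but was called at 1.02 without LPS mouse 4.

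Granule proteins did not move as one group in engrafted cells. Of 23 listed, 11 were tested there, with 5 called higher and 2 called lower after LPS (over all genes 10.2% and 11.3%) and a median log2 fold change of -0.08. Only 2 could be tested in host microglia, with 0 called by edgeR or DESeq2 and 1 higher at an unadjusted p below 0.05. Arg1 (arginase) rose from 3.63 ± 2.62 to 423 ± 109 CPM (log2 fold change 6.89, adjusted p = 1.54e-11), and Chil3, a chitinase-like lectin of monocytes and alternatively activated macrophages, rose by 3.20 (adjusted p = 5.52e-08). Camp, the cathelicidin, fell by 1.85 (adjusted p = 0.0266), a call that was lost without control mouse 7 at -0.82, without LPS mouse 2 at -1.35 and without LPS mouse 3 at -1.65, and with DESeq2. Mmp8, neutrophil collagenase, had 1 read in unchallenged and 82 in LPS-treated engrafted libraries and none in host libraries.

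Of 16 other S100 genes, 6 were tested in engrafted cells, and 4 rose with LPS (10.2% over all genes, median log2 fold change 2.27). S100a8 and S100a9 were not higher. S100a4 rose from 39.2 ± 24.7 to 544 ± 204 CPM (log2 fold change 3.86, adjusted p = 7.45e-08), S100a6 by 2.98 (adjusted p = 3.94e-08) and S100a10, the annexin 2 partner, by 3.38 (adjusted p = 1.43e-09). In host microglia 0 of 3 tested were called by edgeR or DESeq2, 0 also at an unadjusted p below 0.05, and the log2 fold change of S100a10 was -0.05 (SE 0.35).

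Among 37 protease inhibitors, 10 were tested in engrafted cells, with 4 higher and 2 lower after LPS (over all genes 10.2% and 11.3%). Their median log2 fold change was 0.21. In host microglia 7 were tested, with 1 lower and 0 higher by edgeR or DESeq2 (3 higher at an unadjusted p below 0.05), and these became 1 higher without control mouse 8 and 2 lower without LPS mouse 2. Cstb, which inhibits cathepsins in the cytosol, rose by 2.27 (adjusted p = 3.05e-08) and the whey-acidic-protein gene Wfdc17 by 2.01 (adjusted p = 7.28e-05). Timp1, an inhibitor of metalloproteases, went from 1.61 ± 1.25 to 61.0 ± 31.5 CPM, a pooled rate 36.8 times higher (95% interval 15.5 to 115). Serpinb8 had no read in any host library and 56.9 ± 4.80 CPM in unchallenged engrafted cells, which is at least 76.4-fold higher when 3 reads are allowed over the host group.

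Cytokines and signalling genes that control acute-phase transcription responded in both populations. Of 35 listed, 28 were tested in engrafted cells and 29 in host microglia, where 11 and 12 rose and 1 fell in each. In engrafted cells 0 fell without LPS mouse 3. Over all genes tested, 10.2% rose and 11.3% fell in engrafted cells and 7.66% rose in host microglia. The medians of the list were 0.43 and 0.56 on the log2 scale. The interaction was called in 2 of 29, 1 in each direction (over all genes 2.45% higher and 2.5% lower). Cebpb, which encodes a C/EBP factor, rose by 2.15 in engrafted cells (adjusted p = 3.00e-06) and 1.29 in host microglia (adjusted p = 3.20e-07), and Bcl3, a nuclear IkappaB protein, by 2.65 and 2.59 (adjusted p = 3.35e-07 and 3.97e-09). Socs3, the feedback inhibitor of STAT3 signalling, rose by 3.52 (adjusted p = 9.26e-10) and 1.41 (adjusted p = 3.82e-06), with a called difference of 2.10 (adjusted p = 9.41e-05).

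Receptors for the products of these genes were mixed after LPS. In engrafted cells 7 were higher and 6 lower of 17 tested (over all genes 10.2% and 11.3%). In host microglia 5 were higher and 2 lower of 15 (over all genes 7.66% higher). Fpr2, a receptor that binds serum amyloid A, rose from 4.30 ± 2.48 to 181 ± 43.3 CPM in engrafted cells (log2 fold change 5.42, adjusted p = 1.81e-10) and reached 21.7 ± 8.89 CPM in host microglia. Cd163, the haptoglobin-haemoglobin receptor, rose by 2.04 in engrafted cells (adjusted p = 0.000134). Tlr2 rose by 2.49 in host microglia (adjusted p = 5.32e-08) and its log2 fold change in engrafted cells was 0.81, not called but 1.04 and called without mice 4 and 8, with a called difference of -1.69 (adjusted p = 0.00455). In host microglia, the 2 genes called lower became 4 without LPS mouse 4 or control mouse 6. Cd36, a scavenger receptor to which S100a8 and S100a9 complexes bind, fell by 4.65 in engrafted cells (adjusted p = 3.51e-07).

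Between populations, granule and S100 genes were called mostly higher in engrafted cells. Without LPS, the genes called higher and lower in engrafted cells were 2 and 0 of 4 acute-phase genes tested, 5 and 1 of 6 granule genes, 5 and 0 of 6 S100 genes, 3 and 2 of 9 protease inhibitors, 1 and 4 of 27 signalling genes and 3 and 2 of 13 receptors. After LPS they were 5 and 0 of 5, 7 and 0 of 8, 4 and 0 of 6, 4 and 3 of 10, 2 and 2 of 29 and 4 and 3 of 17. Single libraries moved some of these counts. Without LPS, the acute-phase genes higher became 1 without engrafted control mouse 5, and the receptors lower became 4 without engrafted control mouse 8. After LPS, the signalling genes higher became 1 without engrafted mouse 1, 2 or 4 or host mouse 1, 3 or 4, and with library totals 0 were higher and 4 lower. None of them was called higher without mice 4 and 8. Chil3, for example, had 61 reads in unchallenged engrafted and none in unchallenged host libraries, at least 30.1-fold higher when 3 reads are allowed over the host group. Over all genes tested, 6.25% were called higher in engrafted cells without LPS and 6.73% after it. Some granule genes passed the count filter only through their engrafted libraries, so that higher was the only call open to them. Examples are Camp without LPS (156 against 1 read) and Chil3 after LPS (607 against 1 read). The lists were made with results of these data known, so these counts are no independent support.

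Genes outside the set whose pattern over the 16 libraries was nearest were found by the mean absolute difference of centred log2(CPM + 1), among 8839 genes. Hp was nearest to F10 (coagulation factor X, 0.361), Amica1 (0.577) and Cfb (complement factor B, 0.602), and Slpi to the same 3 genes at 0.548, 0.610 and 0.548. Saa3 was nearest to Il1rn (0.849), Sphk1 (0.924) and the chemokine Ccl5 (0.929), and Lcn2 to Chil1 (0.744) and Cxcl2 (0.825), then Amica1 (1.01). For Lrg1 the nearest was Msr1 (0.759), a scavenger receptor that was at 75.4 ± 10.4 and 654 ± 120 CPM in engrafted cells and 8.92 ± 6.16 and 489 ± 83.4 CPM in host microglia without and with LPS, followed by Adamtsl4 (0.839) and Sema6b (0.979). S100a9 was nearest to Ngp (0.638), then Camp (0.969) and Serpinb8 (1.04). The partner S100a8 was nearest not to S100a9 (1.25) but to Vnn3 (0.780), Cd74 (0.862) and Cybb (0.869), and Serpina3g to Ifi205 (0.735), Ttc39c (0.748) and Cdc42ep2 (0.779). These distances were not tested.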

How the data were processed

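RNA-seq of engrafted cells and host microglia from 8 chimeras was analysed (4 groups of 4 libraries, MARS-seq derived, poly(A)-captured). Per gene, the authors deposited whole read counts that were not normalized: reads were mapped to mm9 with HISAT (0.1.5 in the submitters' processing notes), uniquely mapped reads were kept, and HOMER counted sense-strand reads on the exons of 1 condensed model per gene. Removal of PCR duplicates is not given in the sources used here, so counting intervals are lower limits of the error.

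The 8 genes, the gene lists and the tests were chosen with earlier results of these data known. Counts were filtered with edgeR's filterByExpr (minimum count 10, total 15), scaled by TMM and compared, 2 groups a fit, with edgeR 4.0.16 quasi-likelihood tests in R 4.3.3, with Benjamini-Hochberg adjustment over all genes tested. The interaction of population and LPS used 16 libraries. Calls needed a log2 fold change beyond 1 in either direction and an adjusted p below 0.05. No term for the mouse was in the study's methods. CPM used TMM effective sizes over all libraries. Where the lower group had at most 3 reads in each library, the ratio of pooled read rates is given with its exact binomial 95% interval, or, at 0 reads, a bound against 3 reads over the group. The fits were tested on simulated data.

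From each list the text names genes called in at least 1 of the 4 comparisons of groups, at most 6 a list by absolute fold change, with a mean of at least 20 CPM in a group, together with the 3 genes nearest in pattern to each of the 8. Replicates differed by 1.98 to 8.64 times counting noise by a chi-square of their counts, so no 2 libraries were merged. Engrafted and host libraries with the same number come from the same mouse. Their deviations from group means had Pearson correlations of -0.0335 to 0.194 within a mouse, while the mean over the other mice was -0.0592 to 0.00842. One alternative fitted the mouse as a replicate block. The alternatives also included RLE factors, library totals, DESeq2 1.42.0, no filter and a strict filter on counts, 1 fit of all libraries, leaving out each library, and, chosen after seeing the data, leaving out mice 4 and 8, whose libraries held most red blood cell transcripts. Promoters were read from the mm9 genome at the deposited starts, not from RefSeq.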

Additional observations from a re-analysis of the deposited data

Results flagged for a closer look

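Single libraries stood apart in 3 groups, by the gap to the nearest of the other three relative to the range, among 26 groups of values of the 8 genes and 4 groups of read totals, a rule that chance meets in about 1 in 20 groups. Saa3 in host microglia of control mouse 8 was at 138 CPM, against 35.4 to 52.9 CPM in the other mice. S100a9 in engrafted cells of LPS mouse 2 was at 2.41 CPM, against 145 to 172 CPM. The engrafted library of control mouse 5 had 946753 reads on genes, the highest of its group.

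The fitted LPS response of engrafted cells minus that of host microglia, from the interaction term in edgeR on the log2 scale, passed the thresholds for 5 of the 8 genes: Saa3 at 3.33, Hp at 5.35, Slpi at 5.84, Lrg1 at -5.03 and S100a8 at -4.32. Over all 8847 genes 2.45% passed in the higher and 2.5% in the lower direction. The 8 genes were chosen by their levels in these libraries, so these values are a description and no test. The Slpi value no longer passed without host control mouse 6, 7 or 8 (5.35 to 5.96), and that of S100a8 without any one of 8 libraries, namely host LPS mouse 2 or 3, host control mice 5 to 8 and engrafted control mouse 6 or 7 (-4.74 to -3.78). Among the other named genes, the response was larger in engrafted cells for Ltb4r1 (5.82), S100a4 (5.16), Arg1 (4.35), S100a10 (3.43), S100a6 (3.09), Socs3 (2.10), Mt2 (1.99), Cstb (1.60) and Cst7 (1.17). It was lower in engrafted cells for Cd36 (-5.38), Cp (-1.75) and Tlr2 (-1.69). The call for Arg1 was lost without host control mouse 5 or 8 or engrafted control mouse 6 (2.83 to 4.33), that for Cd36 without host LPS mouse 3 (-4.31), and that for Cst7 without engrafted LPS mouse 2, engrafted control mouse 5, 6 or 7, or host control mouse 8 (1.02 to 1.11).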

How the results depend on the processing

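No direction reversed under any alternative. Requiring at least 10 reads in every library left 2, 1, 0 and 2 of the 8 genes called higher with LPS in engrafted cells, with LPS in host microglia, without LPS and after LPS between populations, and 1 higher and 0 lower by the interaction. The list genes called higher were then 21 with LPS in engrafted cells, 8 and 9 between populations without and after LPS, and 4 by the interaction. Over all genes the higher and lower calls were 385 and 431, 381 and 490, 230 and 172, 245 and 136, and 141 and 110, fewer because genes with a silent group are dropped. With no filter, 1 of the 8 genes (S100a9, -1.04) was called lower with LPS in engrafted cells and 5 higher between populations without LPS, and Lcn2 was called by the interaction (1.78). The list genes were 17 lower with LPS in engrafted cells and 32 and 40 higher between populations without and after LPS, and all genes 1337 lower, and 895 and 857 higher. One fit of all 16 libraries called 5 of the 8 higher without LPS.

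Without mice 4 and 8, S100a9 was called lower with LPS in engrafted cells (-1.56, 1 of 8 genes lower), 147 genes were lower by the interaction, and the interaction calls of Slpi (5.97) and Arg1 (3.23) were lost. The cause of these shifts was not tested. Pairing engrafted and host libraries by mouse (replicate block) called 4 of the 8 genes higher by the interaction in place of 3, adding Lcn2 at 1.75, and changed no other call of the 8 genes.

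Leaving out each library in turn gave 6 of the 8 genes higher with LPS in engrafted cells each time, 3 to 4 higher in host microglia, 3 to 4 and 6 to 7 higher between populations without and after LPS, 0 to 1 lower after LPS (Lrg1, -1.04, without engrafted LPS mouse 4), and 2 to 3 higher and 1 to 2 lower by the interaction. Over all genes the interaction called 135 to 245 lower. The calls of the 8 genes were unaltered with RLE factors, library totals and DESeq2. Depth limits the genes with few reads: Lrg1, Slpi, S100a8 and S100a9 were at or under 3 reads in each unchallenged host library.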
